A study of Mus musculus with 4 samples.

Results

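The genes described here carry the names Vps, Snx and Chmp and encode the protein machinery that sorts membrane cargo at endosomes. They were taken as the probe sets mapped to exactly 1 gene symbol that starts with Vps, Snx or Chmp followed by a digit, with the brightest probe set standing for a gene that had several. This gave 75 genes of the 19938 measured, namely 35 Vps, 30 Snx and 10 Chmp genes, represented by 78 probe sets in all. Each gene had 1 probe set except Snx29, Vps13d and Vps4b.

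Lysates of early erythroid progenitors from C57BL/6 mouse fetal liver at E14.5 were immunoprecipitated, and the RNA brought down was measured on Affymetrix whole-transcript arrays, 1 per sample. Control rabbit IgG gave 2 arrays (IgG arrays 1 and 2) and an antibody specific to an RNA-binding protein, called RBP in the labels, gave the other 2 (RBP arrays 1 and 2). The cells had been depleted of lineage-positive, Sca-1, CD16/32, CD41 and CD34 cells and sorted as c-Kit positive with low CD71, and both groups used the same cells without any other treatment. The labels do not name the protein. From general knowledge of the study, ZFP36L2, a zinc finger binder of AU-rich mRNA elements, is assumed. No publication was consulted and the data do not test this identity. No array of input RNA was analysed here, so a difference compares 2 immunoprecipitates and not recovery from the cell. Nothing in the labels says that same-group arrays are independent cell preparations, and p-values then cover only array-to-array spread, which can be technical.

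Endosomes decide whether a receptor taken up from the surface is returned to it, passed to the Golgi or destroyed in the lysosome. The ESCRT complexes bind ubiquitinated receptors and bud them into the lumen of the endosome, and the CHMP proteins form the filaments that cut the bud off before the ATPase VPS4 takes them apart. Retromer and retriever return receptors, often with sorting nexins, which recognise phosphoinositides through a PX domain. HOPS, CORVET and GARP are tethers that bring vesicles and endosomes together. In red cell precursors this machinery carries the transferrin receptor, which is recycled while haemoglobin is made and discarded in exosomes as the reticulocyte matures.

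The values are log2 levels, given in the order array 1 and array 2 of each group, and a difference is the RBP mean minus the IgG mean (n = 2 each) with the standard error (SE) of limma's moderated fit across all 19938 genes. A gene was called higher or lower at a Benjamini-Hochberg adjusted p under 0.05. Probe sets had a median level of 5.85 and 5.93 with IgG and 5.57 and 5.62 with RBP, and the interquartile range was 2.91 and 2.87 against 3.73 and 3.61. The background level of 5.37, the 95th percentile of 1231 chemosensory receptor genes, was exceeded by the mean of 72 of the 75 genes, all but Chmp4c, Snx24 and Snx31. Over whole arrays the difference went with the level of a gene, with a median of -0.02 over all genes and 0.40 over those above background, so classes are also given after the smooth trend of the difference on mean level was removed. An exact two-sided permutation test of 2 arrays against 2 cannot give a p below 0.333. Where 1 array is left out below, the spread of the intact pair alone sets the error. The SD across genes of the difference between same-group arrays was 0.40 for IgG and 0.26 for RBP. A call lost without an RBP array, or gained without an IgG array, therefore depends in part on which pair sets the error. Of 6 erythroid progenitor markers measured, all lay above background, where 64.3% of all genes did. Kit, Epor and Tal1 were called higher, where 36.5% of genes above background were, and Gata1, Klf1 and Tfrc did not pass. With the level trend removed 0 of the 6 were called higher or lower, and their median difference was -0.01. Markers of other cell types were also read, and Mpo had 11.40 and 10.53 with IgG and 11.49 and 10.56 with RBP. Of the granulocyte and mast cell markers 4 of 6 lay above background, as did 4 of 6 macrophage and 4 of 6 endothelial and stromal markers. These counts are near the 64.3% of all genes and so no result about these cells. The summed log2 level of the granulocyte and mast cell markers was 46.3 and 42.2 with IgG and 43.0 and 39.5 with RBP. Array 1 stood above array 2 in both groups. Rag1 (1.24) and Csf1r (1.12) had large positive differences that did not pass. Elane, Cd68 and Marco were called lower and Gp9 higher among 31 markers of other cell types, where 6.54% and 23.8% of all genes were. The part of such cells in the results below was not tested.

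Transcripts of endosomal sorting genes were mostly higher in the RBP immunoprecipitates. Of the 75 genes, 41 were higher, 1 was lower and 33 did not pass, which makes 54.7% higher where 23.8% of all genes tested and 36.5% of those above background were higher, and 1.33% lower where 6.54% of all genes were lower. The median difference was 0.74, or 1.67-fold, and the middle 50% of the genes lay between 0.34 and 1.18. Both RBP arrays stood above both IgG arrays for 58 of the 75 genes and below them for 9, where 54.9% and 22.8% of genes above background and 37.4% and 36.2% of all genes did so. At least 2-fold higher without overlap were 27 of the 75, against 20.8% of genes above background and 13.5% of all genes. The largest differences were those of Vps13d (1.68), Snx25 (1.66), Snx19 (1.64), Snx7 (1.53), Chmp1b (1.43), Vps26a (1.43), Snx30 (1.41), Vps26c (1.41), Vps8 (1.40) and Vps18 (1.40).

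**Figure D1:**
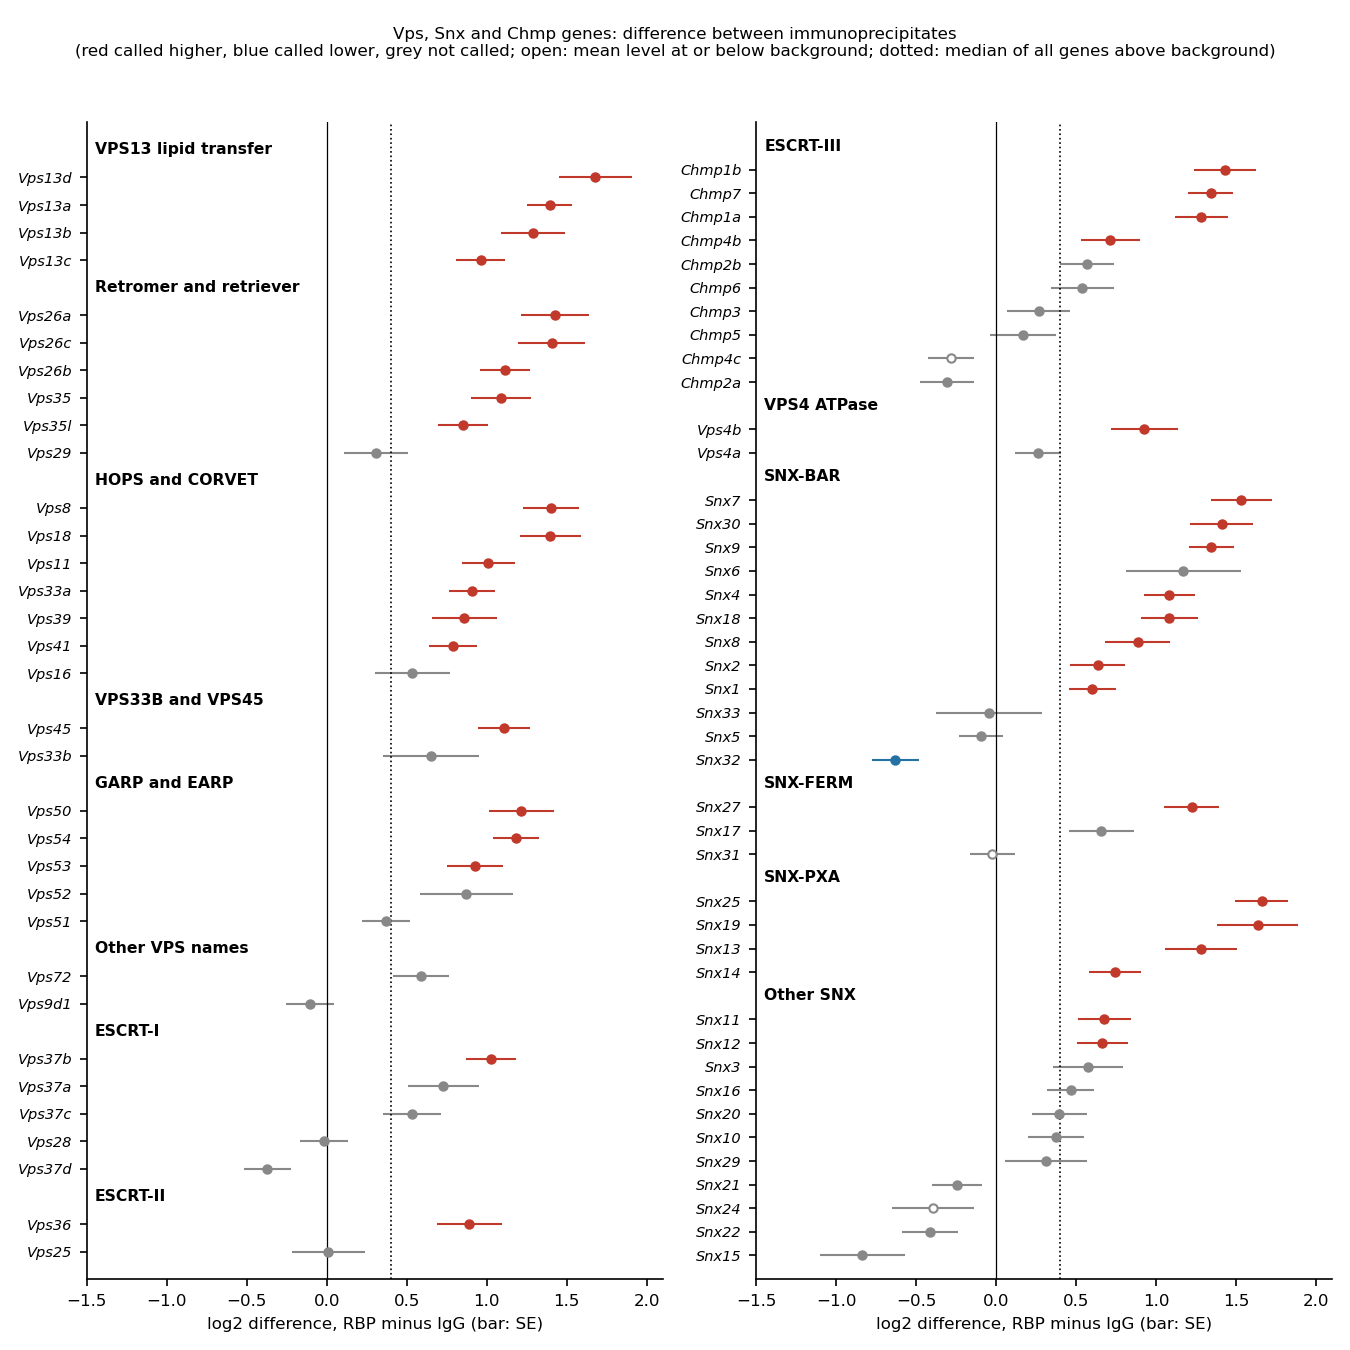
Difference in log2 level, RBP minus IgG, for each of the 75 genes, grouped by complex, with the SE of the limma fit as bars. Red points were called higher (41), the blue point lower (Snx32), and open points lie at or below background. Most points lie to the right of the dotted line at 0.40, the median of all genes above background.

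By class, the share of higher members ran from 40.0% to 62.9%. Of 35 Vps genes, 22 were higher (62.9%) with a median difference of 0.91. Of 30 Snx genes, 15 were higher (50%) and Snx32 was lower, with a median of 0.65. Of 10 Chmp genes, 4 were higher (40.0%, near the 36.5% of genes above background) with a median of 0.55. By role, the ESCRT subunits and VPS4 ATPases gave 7 higher of 19 (36.8%), a share at the 36.5% of all genes above background, with a median of 0.54, and the 26 Vps genes outside ESCRT and VPS4 gave 19 higher (73.1%), with a median of 0.99. The differences between these classes were not tested. With the level trend removed, 10 of the 75 genes were higher and 4 lower, against 5.94% and 5.11% of all genes. Among genes above background, 10 and 4 of the 72 members were called, and 1114 and 990 of all 12828. The medians were then 0.23 for Vps, 0.17 for Snx and -0.07 for Chmp genes. Quantile normalization, which moved the median of all genes to 0.16, left 20 higher and 3 lower, where 11.1% and 2.77% of all genes were called. Centring on the chemosensory genes, which moved it to 0.29, gave 57 and 0, where 35.6% and 1.59% of all genes were called, and 0 members were lower at an unadjusted p under 0.05 in limma. Leaving out RBP array 1 gave 21 higher and 0 lower against 8.65% and 0.497% of all genes, and leaving out RBP array 2 gave 21 and 0 against 10.3% and 0.757%, with 2 and 0 members lower at an unadjusted p under 0.05 in limma. Leaving out IgG array 1 gave 44 and 1 against 25.8% and 9.15%, and leaving out IgG array 2 gave 44 and 5 against 24.7% and 14.6%. Restricting the fit to genes above background gave 47 higher and 2 lower against 38.6% and 7.13% of the genes in it. The mean over probe sets gave 42 and 1 against 23.6% and 6.4%, eBayes with a variance trend and robust options gave 40 and 1 against 23.1% and 8.67%, and a threshold of 0.1 gave 51 and 2 against 28.9% and 13.4%. Without variance moderation limma called 0 members at an adjusted p under 0.05, and 0.01% of all genes higher and 0.00502% lower. At an unadjusted p under 0.05 in that fit 36 members were higher and 4 lower, a count that was not made for all genes. Among the 41 genes, 17 remained higher without each array in turn.

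**Figure D2:**
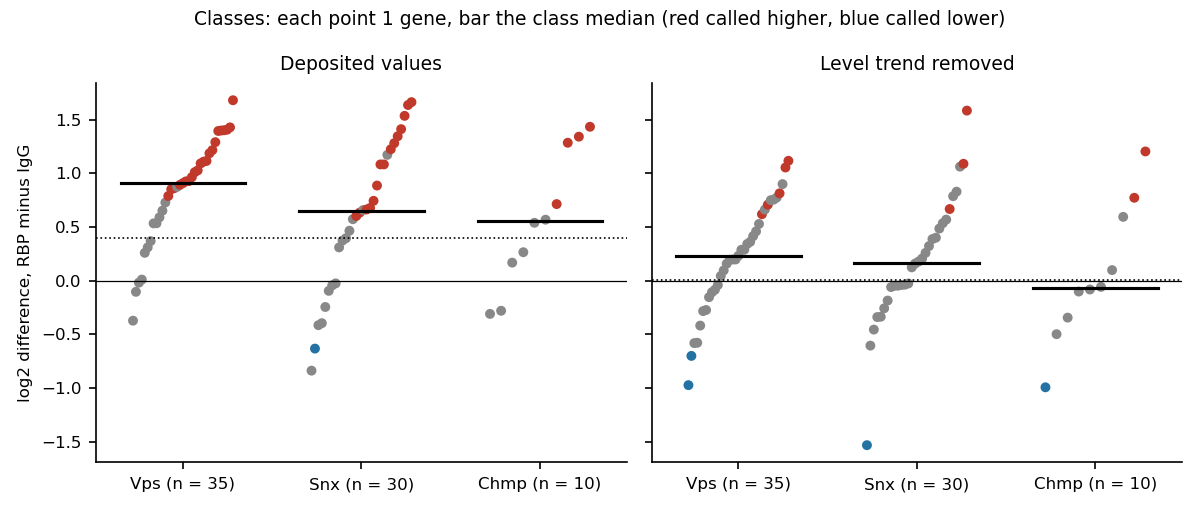
Difference in log2 level, RBP minus IgG, for each Vps, Snx and Chmp gene, from the deposited values (left) and with the level trend removed (right). Bars are class medians (0.91, 0.65 and 0.55 on the left), and the dotted line is the median of all genes above background.

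The VPS13 genes were all higher. These encode very long proteins that bridge membranes and carry lipids between them. Vps13d had a level of 8.39 and 8.93 with IgG and 10.20 and 10.48 with RBP, a difference of 1.68 ± 0.23 or 3.20-fold (limma, adjusted p = 0.00660). Its other probe set read 4.49 and 4.95 with IgG and 6.55 and 6.27 with RBP and differed by 1.69 ± 0.21 (limma over all probe sets, adjusted p = 0.00625). The IgG values of that probe set lay under the background level, so the size of the difference on it is uncertain. Vps13a, the chorein gene, had 8.14 and 8.18 with IgG and 9.55 and 9.56 with RBP and differed by 1.39 ± 0.14 (limma, adjusted p = 0.00558). Vps13b had 8.60 and 9.08 with IgG and 10.13 and 10.14 with RBP and differed by 1.29 ± 0.20, and Vps13c had 9.28 and 9.10 with IgG and 10.09 and 10.21 with RBP and differed by 0.96 ± 0.15. All 4 genes were thus higher and had both RBP arrays above both IgG arrays, where 36.5% and 54.9% of genes above background did so. The group median was 1.34, or 0.68 with the level trend removed, where Vps13a and Vps13d remained higher. Vps13c lost its call without RBP array 1 or RBP array 2 (limma, adjusted p = 0.0599 and 0.0764).

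Retromer and retriever transcripts were higher with the exception of Vps29. Of 6 genes 5 were higher (83.3%, beside 36.5% of genes above background), with a median difference of 1.10. Vps26a, an arrestin-like retromer subunit, had 7.33 and 7.35 with IgG and 8.49 and 9.04 with RBP and differed by 1.43 ± 0.21 (limma, adjusted p = 0.00792). Its paralog Vps26b had 8.72 and 8.64 with IgG and 9.68 and 9.91 with RBP and differed by 1.11 ± 0.16. Vps35, the retromer scaffold, had 8.52 and 8.40 with IgG and 9.35 and 9.76 with RBP and differed by 1.09 ± 0.19 (limma, adjusted p = 0.0110). In each of these 3 genes the groups lay apart by more than the spread within either. The retriever counterparts Vps26c and Vps35l differed by 1.41 ± 0.21 and 0.85 ± 0.16. Vps29, the subunit that both complexes share, had 7.62 and 7.14 with IgG and 7.66 and 7.71 with RBP, so that the lowest RBP array stood just above the highest IgG array, and its difference of 0.31 ± 0.20 did not pass (limma, adjusted p = 0.271). It passed without IgG array 1 (difference 0.55, adjusted p = 0.0384) and was negative with the level trend removed (-0.28). Vps26b, Vps35 and Vps35l lost their calls without RBP array 2 (limma, adjusted p = 0.0559, 0.0770 and 0.112), and Vps35l also without RBP array 1 (0.0793). After removal of the level trend 0 of the 6 passed limma's adjusted p of 0.05, 3 were higher at an unadjusted p under 0.05, and 5 stayed positive.

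The tethers HOPS and CORVET gave 6 higher genes of 7 (85.7%, beside 36.5% of genes above background), with a median difference of 0.91. In all 7 both RBP arrays stood above both IgG arrays, where 54.9% of genes above background did so. HOPS joins late endosomes to lysosomes and CORVET joins early endosomes, and they share a core of VPS11, VPS16, VPS18 and VPS33A. Vps8, which is particular to CORVET, had 6.68 and 6.93 with IgG and 8.08 and 8.33 with RBP and differed by 1.40 ± 0.18 (limma, adjusted p = 0.00600). The core gene Vps18 had 6.81 and 7.19 with IgG and 8.52 and 8.28 with RBP and differed by 1.40 ± 0.19. Both were higher by more than 2-fold, with no array of one group within the range of the other. Vps11 differed by 1.01 ± 0.17 and Vps33a by 0.91 ± 0.15. The HOPS genes Vps39 and Vps41 differed by 0.86 ± 0.20 and 0.79 ± 0.15. Vps16 had 7.67 and 8.30 with IgG and 8.55 and 8.49 with RBP, with IgG arrays further apart than RBP arrays, and its difference of 0.53 ± 0.23 did not pass (limma, adjusted p = 0.135), although it passed without IgG array 2 (0.85, adjusted p = 0.0142). Vps11, Vps33a, Vps39 and Vps41 lost their calls without RBP array 1 (limma, adjusted p from 0.0636 to 0.113) and without RBP array 2 (from 0.0692 to 0.137). With the level trend removed Vps8 alone of the 7 remained higher (0.81).

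Vps33b, whose protein pairs with VIPAS39, and Vps45, an SM protein for fusion at early endosomes, belong to related fusion machinery. Vps45 had 5.63 and 5.41 with IgG and 6.56 and 6.70 with RBP and differed by 1.11 ± 0.16 (limma, adjusted p = 0.00742). It was still higher with the level trend removed (1.12), and without RBP array 2 it lost its call (adjusted p = 0.0559). Vps33b had 8.04 and 8.75 with IgG and 8.76 and 9.33 with RBP, so RBP array 1 stood only slightly above IgG array 2, and its difference of 0.65 ± 0.30 did not pass (limma, adjusted p = 0.152). It passed without IgG array 2 (adjusted p = 0.0430).

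GARP tethers endosome-derived vesicles at the Golgi, and in EARP VPS50 takes the place of VPS54 for recycling. Of the 5 genes, 3 were higher, where 36.5% of genes above background were, with a median difference of 0.92. Both RBP arrays stood above both IgG arrays in all 5. Among genes above background 54.9% stood so and 22.8% had both RBP arrays below, so groups without overlap were common. Whether these 5 genes differ from those shares was not tested. Vps54 had 6.78 and 6.87 with IgG and 8.04 and 7.98 with RBP and differed by 1.19 ± 0.14 (limma, adjusted p = 0.00573), and it also passed with the level trend removed (0.62). Vps50 had 6.70 and 6.25 with IgG and 7.58 and 7.81 with RBP and differed by 1.22 ± 0.20. The 2 genes that distinguish GARP from EARP were thus both higher. Of the shared subunits, Vps53 was higher by 0.92 ± 0.18, whereas Vps52 (0.87 ± 0.29) and Vps51 (0.37 ± 0.15) did not pass (limma, adjusted p = 0.0687 and 0.116). The IgG arrays of Vps52 read 7.26 and 8.12, and it passed without the latter, IgG array 2 (adjusted p = 0.00918). Vps53 lost its call without RBP array 1 or RBP array 2 (limma, adjusted p = 0.105 and 0.0717), and Vps50 without RBP array 2 (0.0618).

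Vps72 and Vps9d1 share the Vps name without being parts of these complexes. Vps72 encodes a subunit of chromatin remodellers that handle the histone H2A.Z, and its difference of 0.59 ± 0.18 narrowly missed the threshold (limma, adjusted p = 0.0526) and passed without IgG array 2 (0.0324). Vps9d1, which encodes a VPS9-domain protein, differed by -0.10 ± 0.15 and did not pass.

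**Figure D3:**
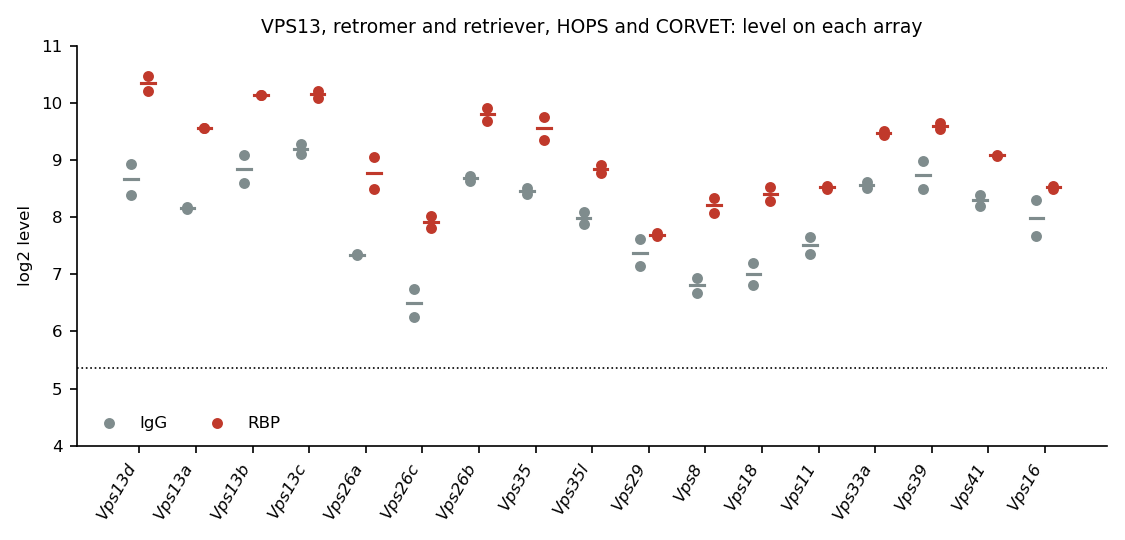
Log2 level on each array for the VPS13, retromer and retriever, and HOPS and CORVET genes, with IgG arrays in grey, RBP arrays in red, short bars for group means and a dotted line at the background level. RBP points stand above IgG points in all 17 genes, by the least in Vps29.

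Of the 7 genes of ESCRT-I and ESCRT-II with Vps names, whose complexes gather ubiquitinated cargo, 2 were higher (28.6%). This share lies between the 23.8% of all genes and the 36.5% of genes above background and so is no result about these complexes. Subunits with other names are counted among the partners below. Vps37b, 1 of 4 interchangeable ESCRT-I subunits, had 6.60 and 6.73 with IgG and 7.80 and 7.59 with RBP and differed by 1.03 ± 0.16 (limma, adjusted p = 0.00837). The ESCRT-II gene Vps36, whose protein binds ubiquitin, had 8.30 and 7.86 with IgG and 9.07 and 8.87 with RBP and differed by 0.89 ± 0.20 (limma, adjusted p = 0.0240). Vps37a (0.73 ± 0.22, limma adjusted p = 0.0557) and Vps37c (0.53 ± 0.18, adjusted p = 0.0759) did not pass, although both RBP arrays exceeded both IgG arrays in each. Vps28, a core ESCRT-I subunit, had 8.97 and 8.91 with IgG and 8.83 and 9.02 with RBP, with groups that overlapped and a difference of -0.02 ± 0.15. Vps25 of ESCRT-II had 9.94 and 9.61 with IgG and 9.52 and 10.05 with RBP, where the RBP arrays enclosed the IgG arrays, and differed by 0.01 ± 0.23. Vps37d had 7.68 and 7.83 with IgG and 7.35 and 7.41 with RBP, with both RBP arrays below, and its difference of -0.37 ± 0.15 did not pass (limma, adjusted p = 0.108). Once the level trend was removed Vps28 (-0.70, limma adjusted p = 0.0431) and Vps37d (-0.97, adjusted p = 0.0220) were lower and 0 of the 7 were higher, with 1 higher at an unadjusted p under 0.05. Without RBP array 1 both Vps37b and Vps36 lost their calls (adjusted p = 0.0756 and 0.152), Vps36 also without RBP array 2 (0.0797), and Vps37c passed without IgG array 2 (0.0360).

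Within ESCRT-III the 10 Chmp genes ranged from -0.31 to 1.43. Chmp1b had 6.04 and 5.60 with IgG and 7.28 and 7.22 with RBP and differed by 1.43 ± 0.19, or 2.70-fold (limma, adjusted p = 0.00656). Its paralog Chmp1a had 7.54 and 7.76 with IgG and 9.03 and 8.84 with RBP and differed by 1.28 ± 0.16 (limma, adjusted p = 0.00611). The CHMP1 proteins act late in the filament and bind enzymes that disassemble it. Chmp7, which starts ESCRT-III assembly when the nuclear envelope is resealed after mitosis, had 6.81 and 6.70 with IgG and 8.07 and 8.12 with RBP and differed by 1.34 ± 0.14 (limma, adjusted p = 0.00558). These 3 genes had RBP arrays well above the IgG arrays and kept their calls without each array in turn. Chmp4b, the main filament subunit, had 9.29 and 9.15 with IgG and 10.13 and 9.74 with RBP and differed by 0.71 ± 0.18 (limma, adjusted p = 0.0350), a call lost without IgG array 2 (adjusted p = 0.0660), RBP array 1 (0.270) or RBP array 2 (0.0741).

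The other Chmp genes did not pass. Chmp2a, whose product caps the filament and recruits VPS4, had 8.18 and 8.50 with IgG and 8.08 and 7.98 with RBP, with both RBP arrays below both IgG arrays, and differed by -0.31 ± 0.17 (limma, adjusted p = 0.210). With the level trend removed it was called lower (-0.99, limma adjusted p = 0.0271), while Chmp1b (1.20) and Chmp7 (0.77) were then higher, so members of 1 complex were called in opposite directions. Its paralog Chmp2b had 7.71 and 7.46 with IgG and 8.04 and 8.26 with RBP and differed by 0.57 ± 0.17 (limma, adjusted p = 0.0544), which passed without IgG array 1 (0.0339). Chmp6, the link from ESCRT-II to the filament, differed by 0.54 ± 0.20 and passed without IgG array 2 (adjusted p = 0.0173). Chmp3 (0.27 ± 0.20) and Chmp5 (0.17 ± 0.21) had overlapping groups, and both differences were negative with quantile normalization. Chmp4c, known for delaying abscission in dividing cells, read at most 4.79 on any array, below the background level. Of the ATPases, Vps4b had 9.09 and 8.76 with IgG and 10.06 and 9.65 with RBP and was higher by 0.93 ± 0.21 (limma, adjusted p = 0.0240), a call lost when IgG array 2 was left out (limma, adjusted p = 0.0507) and when RBP array 1 was (0.165). Its other probe set gave 1.69 (limma over all probe sets, adjusted p = 0.00583). Vps4a had 8.02 and 7.95 with IgG and 8.28 and 8.20 with RBP and differed by 0.26 ± 0.14, which did not pass (limma, adjusted p = 0.211).

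**Figure D4:**
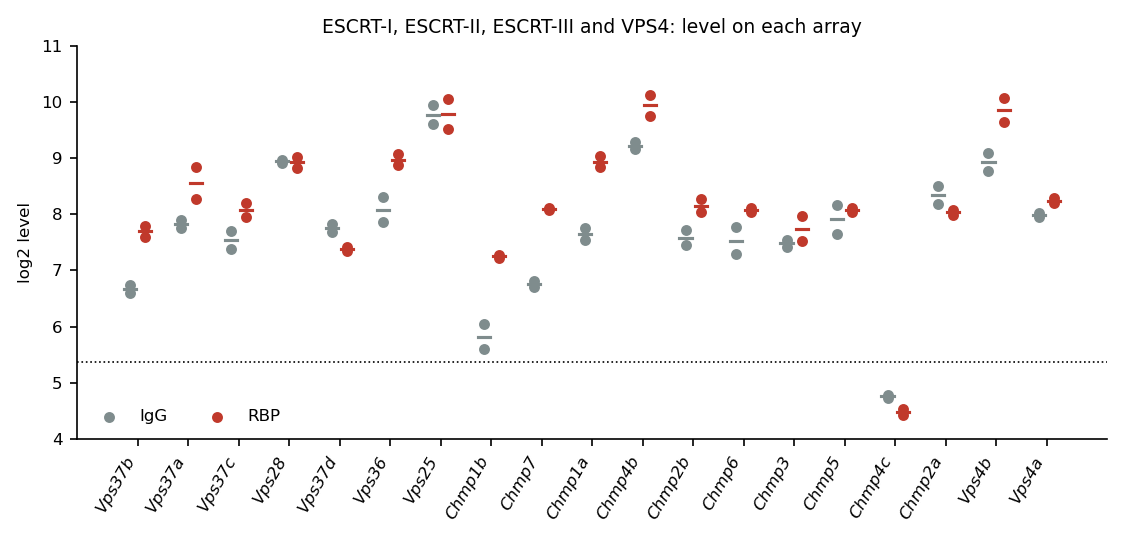
Log2 level on each array for the ESCRT-I, ESCRT-II, ESCRT-III and VPS4 genes, with IgG arrays in grey, RBP arrays in red, short bars for group means and a dotted line at the background level. The RBP points are well above the IgG points for Chmp1b, Chmp7, Chmp1a and Vps37b. They overlap the IgG points for Vps28, Vps25, Chmp3 and Chmp5, and lie below them for Vps37d, Chmp2a and Chmp4c.

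Among the sorting nexins, the 12 SNX-BAR genes encode proteins that bend membranes into tubules. Of these, 8 were higher (66.7%) and 1 lower (8.33%), where 36.5% and 6.54% of genes above background were. The median difference was 0.98. Snx7 had 5.0 and 5.41 with IgG and 6.80 and 6.68 with RBP, the first IgG value being below background, so that the size is uncertain, and differed by 1.53 ± 0.19 (limma, adjusted p = 0.00589). Snx30 had 6.59 and 6.96 with IgG and 8.33 and 8.04 with RBP and differed by 1.41 ± 0.20, and Snx4 had 8.11 and 7.92 with IgG and 9.19 and 9.01 with RBP and differed by 1.08 ± 0.16. SNX4 forms dimers with SNX7 or SNX30 that recycle receptors, the transferrin receptor among them, and all 3 genes were higher. Snx9, a partner of dynamin in endocytosis, had 7.45 and 7.43 with IgG and 8.81 and 8.76 with RBP and differed by 1.34 ± 0.14 (limma, adjusted p = 0.00558). Its relative Snx18 differed by 1.08 ± 0.18, whereas Snx33 had 7.20 and 6.18 with IgG and 6.64 and 6.65 with RBP, the IgG arrays enclosing the RBP arrays, and a difference of -0.04 ± 0.33. Without IgG array 1 that difference was 0.47 (limma, adjusted p = 0.0553), and without IgG array 2 it was -0.55 and called lower (0.0346). Snx8 was higher by 0.89 ± 0.20. Snx7 and Snx9 remained higher with the level trend removed. Snx4 lost its call without RBP array 1 (limma, adjusted p = 0.0657), and Snx8 and Snx18 did so without RBP array 1 (0.166 and 0.0605) or RBP array 2 (0.0700 and 0.0616).

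The retromer-associated SNX-BAR proteins pair SNX1 or SNX2 with SNX5, SNX6 or SNX32. Snx1 had 9.10 and 9.03 with IgG and 9.61 and 9.72 with RBP and differed by 0.60 ± 0.15 (limma, adjusted p = 0.0285), and Snx2 had 8.62 and 8.62 with IgG and 9.08 and 9.43 with RBP and differed by 0.63 ± 0.17 (adjusted p = 0.0421). Both were higher with no overlap. Snx5 had 10.32 and 10.34 with IgG and 10.25 and 10.22 with RBP, with RBP arrays slightly below, and its difference of -0.09 ± 0.14 did not pass (limma, adjusted p = 0.620). Snx6 had 8.15 and 7.12 with IgG and 8.59 and 9.03 with RBP, and its IgG arrays differed by about as much as the groups did. Its difference of 1.17 ± 0.36 did not pass (limma, adjusted p = 0.0557) and passed without IgG array 1 (1.69, adjusted p = 0.0110). Snx32 had 5.79 and 5.79 with IgG and 5.23 and 5.08 with RBP, with RBP arrays under the background level, and was the only member called lower, with a difference of -0.63 ± 0.15 (limma, adjusted p = 0.0262). That call was lost after centring on the chemosensory genes, with quantile normalization and with the level trend removed (-0.45), and without RBP array 1 or RBP array 2 (adjusted p = 0.141 and 0.218). Snx1 lost its call without RBP array 1 or RBP array 2 (adjusted p = 0.170 and 0.225), and Snx2 without any 1 of the 4 arrays (adjusted p from 0.0626 to 0.302). Both turned slightly negative with the level trend removed (-0.04 and -0.05).

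The 4 genes of the PXA domain family, whose proteins reach from the endoplasmic reticulum or endosomes to other membranes, were all higher, with a median difference of 1.46. Snx25 had 6.47 and 6.76 with IgG and 8.23 and 8.32 with RBP and differed by 1.66 ± 0.17, or 3.16-fold (limma, adjusted p = 0.00558). Snx19 had 6.31 and 6.94 with IgG and 8.44 and 8.08 with RBP and differed by 1.64 ± 0.26 (limma, adjusted p = 0.00869). Snx13 had 6.82 and 6.23 with IgG and 7.89 and 7.72 with RBP and differed by 1.28 ± 0.23, and Snx14 had 6.79 and 7.08 with IgG and 7.67 and 7.69 with RBP and differed by 0.74 ± 0.16. All 4 were thus higher with both RBP arrays above both IgG arrays, where 36.5% and 54.9% of genes above background were called higher and stood so. With the level trend removed the median was 0.92 and Snx25 remained called (1.09, limma adjusted p = 0.0221). Snx14 lost its call without RBP array 1 or RBP array 2 (adjusted p = 0.140 and 0.139), and Snx13 without RBP array 1 (0.0656).

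Of the FERM-domain nexins, which read sorting signals in receptor tails, Snx27 had 8.05 and 8.35 with IgG and 9.35 and 9.50 with RBP and was higher by 1.22 ± 0.17 (limma, adjusted p = 0.00696). SNX27 hands its cargo to retromer and SNX17 to retriever. Snx17 had 7.92 and 8.42 with IgG and 8.86 and 8.79 with RBP, and its difference of 0.66 ± 0.20 missed the threshold (limma, adjusted p = 0.0581) and passed without IgG array 2 (0.0127). Snx31 stayed below the background level on all 4 arrays and differed by -0.02 ± 0.14.

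The remaining 11 nexins, built mainly around the PX domain, gave 2 higher genes (18.2%, below both background shares) and a median difference of 0.37. Snx12 had 8.06 and 7.82 with IgG and 8.58 and 8.63 with RBP and differed by 0.66 ± 0.16 (limma, adjusted p = 0.0280), and Snx11 differed by 0.68 ± 0.17 (adjusted p = 0.0308). Both lost their calls without RBP array 1 (0.169 and 0.254) or RBP array 2 (0.181 and 0.0987), and Snx11 without IgG array 2 (0.0527). Snx3, the closest relative of Snx12 and known for recycling the transferrin receptor in erythroid cells, had 9.55 and 8.98 with IgG and 9.81 and 9.86 with RBP. The RBP arrays agreed closely and the IgG arrays did not, and the difference of 0.57 ± 0.22 did not pass (limma, adjusted p = 0.0978) but did without IgG array 1 (0.86, adjusted p = 0.0144). Snx15 had the most negative difference of the 75, with 9.23 and 8.49 with IgG and 8.13 and 7.91 with RBP and -0.84 ± 0.27 (limma, adjusted p = 0.0626). Both RBP arrays were below both IgG arrays. It was called lower without IgG array 2 (-1.21, adjusted p = 0.0106), with quantile normalization and with the level trend removed (-1.53, adjusted p = 0.0278).

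Snx29 had probe sets that disagreed. The brighter one read 6.57 and 6.79 with IgG and 7.34 and 6.64 with RBP and differed by 0.31 ± 0.26, with RBP array 2 between the IgG arrays, and the other differed by 1.18 ± 0.22 and passed (limma over all probe sets, adjusted p = 0.0145). Snx10, Snx16 and Snx20 gave 0.37, 0.47 and 0.40, all with RBP arrays above IgG arrays and none past the threshold. Snx21 and Snx22 gave -0.24 and -0.41 with RBP arrays below, and Snx24, whose mean level was below background, gave -0.40. Snx22 and Snx24 were called lower without IgG array 2 (limma, adjusted p = 0.0327 and 0.0188).

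Related genes within the family were set side by side in 18 pairs in which the mean of each member over the 4 arrays lay above background. Both were higher in 7 pairs, 1 was higher in 7 and neither in 4. Singly, 56.9% of members above background and 36.5% of all genes above background were higher. The pairs are not separate, as Vps37b, Snx18 and Snx5 each stand in more than 1. Chmp1a and Chmp1b, Snx1 and Snx2, Snx7 and Snx30, Snx9 and Snx18, Snx13 and Snx25, Vps26a and Vps26b, and Vps13a and Vps13c were the pairs in which both were higher. The IgG mean of Snx7 and the RBP mean of Snx32 lay below background, and without their pairs both members were higher in 6 of 16 pairs, 1 in 7 and neither in 3, a count added after seeing the data. The widest gap lay between Snx6 (1.17 ± 0.36) and Snx5 (-0.09 ± 0.14), neither of which passed. Chmp2b (0.57) and Chmp2a (-0.31) also had opposite signs without passing, as did Snx20 (0.40) and Snx21 (-0.24). Vps4b was called and Vps4a was not, Snx18 was called and Snx33 was not, and Vps33a was called and Vps33b was not, but the difference within a pair was not tested. Whether probes matched both copies of a pair was not examined.

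**Figure D5:**
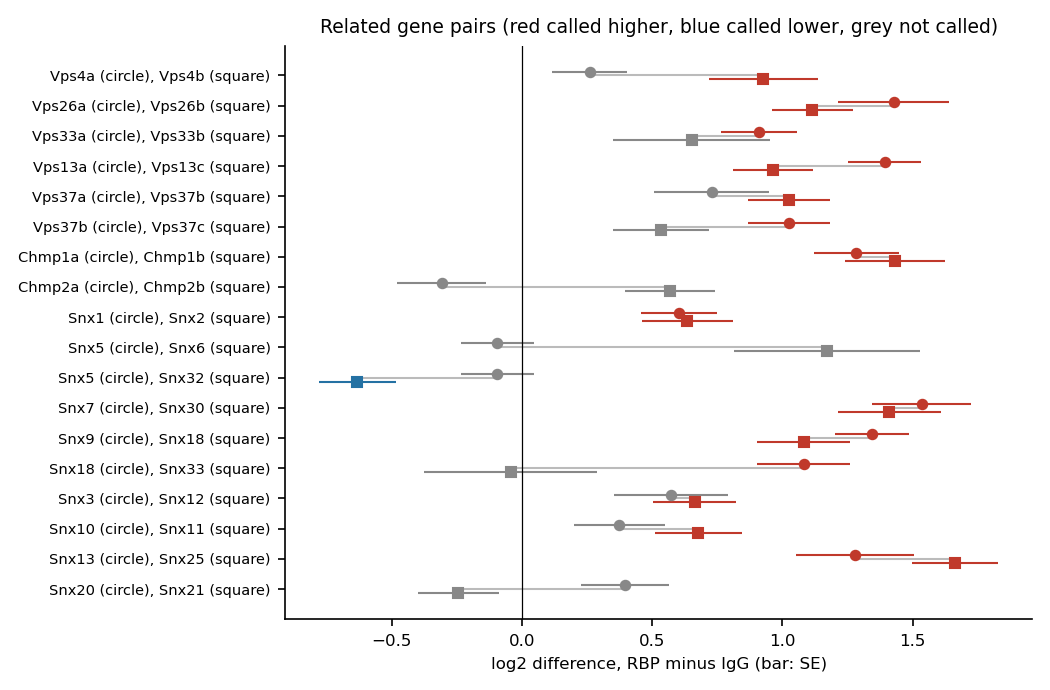
Difference in log2 level, RBP minus IgG, for both members of each of 18 related pairs, the first as a circle and the second as a square, with SE bars. Red members were called higher, the blue one (Snx32) lower and grey ones not called. Both members are red in 7 pairs.

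Partners of these proteins that carry other names were counted from a list of 59 genes, of which 56 were measured. Of the 56, 35 were higher and 0 were lower by limma at an adjusted p under 0.05, and 44 and 0 at an unadjusted p under 0.05, with a median difference of 0.83. All 56 lay above background, and the 62.5% higher stand beside 36.5% of genes above background and 23.8% of all genes. All 6 genes of the VPS34 lipid kinase, which makes the phosphoinositide that PX domains bind, were higher, led by its regulatory subunit Pik3r4 (1.63 ± 0.19) and by Rubcn (1.38 ± 0.15). Of 11 endosome tethers and PIKfyve genes 9 were higher, among them the RAB5 effectors Rbsn (1.62 ± 0.21) and Rabep1 and the lipid kinase gene Pikfyve (1.52 ± 0.15). Of 15 ESCRT-0 and ESCRT partners 9 were higher, among them Stam2, an ESCRT-0 subunit (1.21 ± 0.18), and Pdcd6ip, which encodes the ESCRT adaptor ALIX (1.19 ± 0.15). Of 17 genes of the WASH and CCC complexes, which build actin on endosomes and work with retriever, 5 were higher (29.4%, below the 36.5% of genes above background and so no result about the list), led by Washc2 (1.54 ± 0.14) and Washc4 (1.21 ± 0.17), and the other 12 included 8 of the 10 Commd genes. Of 7 receptors sorted by this machinery 6 were higher. Igf2r, a retromer cargo that carries lysosomal enzymes, had 7.55 and 7.62 with IgG and 9.85 and 9.65 with RBP and differed by 2.16 ± 0.15 (limma, adjusted p = 0.00558). Lrp1 had 7.06 and 6.67 with IgG and 9.09 and 7.83 with RBP and differed by 1.60 ± 0.41 (limma, adjusted p = 0.0350). Its RBP arrays lay far apart, so the size of that difference is uncertain. The transferrin receptor gene Tfrc differed by 0.60 ± 0.18 and lay at the threshold without passing (limma, adjusted p = 0.0503). With the level trend removed 8 of the 56 were higher (14.3%) and 0 lower by limma, where 5.94% and 5.11% of all genes were. Of the 12828 genes above background, 1114 were then higher and 990 lower. At an unadjusted p under 0.05 in limma, 15 and 3 of the 56 passed. The share of all genes at an unadjusted p was not counted in either setting.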

How the data were processed

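RNA from 2 IgG and 2 RBP immunoprecipitates was labelled with a whole-transcript kit and hybridised to 1 array each, per the labels' protocols. The authors deposited log2 levels per probe set made with RMA and affy, per the submitters' processing notes, with versions and settings not given in the sources used here. That these are log2 levels was judged from their range. The platform annotation gave exactly 1 symbol for 21789 of 35556 probe sets, several for 1621 and none for 12146. Entrez identifiers of 21698 matched RefSeq (GRCm38.p6, names only), which changed 0 symbols. The brightest probe set by mean over the 4 arrays stood for a gene.

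The two-sided test was limma's (version 3.58.1, R 4.3.3; lmFit and eBayes) on all 4 arrays with no covariate and no filter, with Benjamini-Hochberg adjustment over 19938 genes. Residual and prior degrees of freedom were 2 and 3.76. The test was tried on simulated data. The level trend was a loess of the difference on mean level (span 0.3), subtracted from the RBP arrays. Complexes, pairs, partner and marker lists and the alternatives were chosen with earlier results of these data known. The members named are, in each complex, those with the highest and lowest difference, both members of pairs above background, the 10 largest and 5 most negative differences and any called lower. Up to 2 called genes were named from each partner list. Further names were added after their values were seen. The alternatives were quantile normalization, centring on chemosensory genes, trend removal, a filter at the background level, a block for replicate number, the mean over probe sets, other variance models, a threshold of 0.1 and leaving out each array. No scan batch or scanner file was used here.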

Additional observations from a re-analysis of the deposited data

How the results depend on the processing

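No called member changed direction in any setting except Snx1, Snx12 and Snx2 with the level trend removed. Against 41 members called higher and 1 lower, quantile normalization gave 20 and 3 (Vps 11, Snx 6), removal of the level trend gave 10 and 4 (Vps 5, Snx 3, Chmp 2) and centring on the chemosensory genes gave 57 and 0. The lower calls were 2 among genes above background, 2 at a threshold of 0.1 and 2 with the replicate number as a block, where 52 were higher against 29.5% higher and 11% lower of all genes. The labels do not say that same-numbered arrays are paired, and with 2 pairs the correlation of their deviations, 0.26, does not settle it. Among 31 markers of other cell types array 1 stood above array 2 in both groups for 21, below it in both for 5 and in opposite order for 5. Whether they share a cell preparation was not tested. Without variance moderation limma called 0 members higher (Vps 0, Snx 0, Chmp 0) and 0 lower. At an unadjusted p under 0.05 in that fit 36 were higher and 4 lower, a count that was not made for all genes. Leaving out each array in turn gave 21 to 44 members higher and 0 to 5 lower, with 10 to 26 Vps, 6 to 16 Snx and 3 to 5 Chmp genes higher and medians of 0.88 to 0.99, 0.58 to 0.65 and 0.50 to 0.56. Each such fit left 1 array in a group, and it was assumed to vary like the other group. The SD across genes of the difference between same-group arrays was 0.40 for IgG and 0.26 for RBP, so fits without an RBP array rest on the wider spread. The medians for Vps, Snx and Chmp genes were 0.39, 0.44 and 0.13 with quantile normalization, 1.22, 0.96 and 0.87 after centring, and 0.23, 0.17 and -0.070 with the trend removed. Single differences changed sign with the trend removed for Chmp2b (-0.082), Chmp3 (-0.34), Chmp5 (-0.50), Chmp6 (-0.10), Snx1 (-0.040), Snx12 (-0.026), Snx17 (-0.037), Snx2 (-0.047), Snx29 (-0.059), Snx3 (-0.046), Snx31 (0.18), Vps16 (-0.15), Vps25 (-0.58), Vps29 (-0.28), Vps33b (-0.040), Vps37c (-0.11), Vps4a (-0.42), Vps51 (-0.27) and Vps72 (-0.084). They changed sign with quantile normalization for Chmp3 (-0.096), Chmp4c (0.086), Chmp5 (-0.29), Snx31 (0.31), Vps25 (-0.43), Vps29 (-0.017), Vps4a (-0.23) and Vps51 (-0.059), and after centring for Chmp2a (0.0064), Chmp4c (0.036), Snx21 (0.071), Snx31 (0.29), Snx33 (0.27), Snx5 (0.22), Vps28 (0.30) and Vps9d1 (0.21). With each array left out in turn, differences that changed sign ran from -0.087 to 0.42 for Chmp5, -0.038 to 0.66 for Snx29, -0.053 to 0.0034 for Snx31, -0.55 to 0.47 for Snx33, -0.25 to 0.27 for Vps25 and -0.11 to 0.078 for Vps28. The cause was not tested. The number of arrays limits the precision, and 3 members lay at or below background.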
